A study of Mus musculus with 4 samples.

Results

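Heat shock protein transcripts were followed in kidney cells of aged mice given a glutaminase inhibitor. The set consisted of 10 genes chosen by symbol among the 31054 features of the count tables: the inducible HSP70 genes Hspa1a and Hspa1b, the constitutive HSP70 gene Hspa8, the co-chaperone Dnajb1, the HSP110 exchange factor Hsph1, the HSP90 genes Hsp90aa1 and Hsp90ab1, the small heat shock protein Hspb1, and the mitochondrial chaperonin pair Hspd1 and Hspe1. All 10 symbols matched 1 row each. All mice were male C57BL/6 animals aged 19 months. One group received BPTES, an inhibitor of the glutaminase GLS1, for 1 month, and the control group received the vehicle DMSO for the same time. Each group had 2 libraries of single-cell 3′ RNA sequencing. Every library mixed 9000 CD45-positive leukocytes with 20000 CD45-negative cells of tubules, vessels and stroma, sorted from kidney digested with liberase at 37 °C for 1 hr, so shares of leukocytes were set by the mixing. The labels do not say whether the libraries of a group came from separate animals, and the p-values then measure only the spread between these libraries.

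Heat shock proteins are molecular chaperones that hold unfolded proteins and help them reach or regain their fold. HSP70 proteins bind exposed hydrophobic stretches in a cycle that J-domain co-chaperones such as Dnajb1 start and exchange factors such as Hsph1 reset, HSP90 proteins act later on clients such as kinases and steroid receptors, and small heat shock proteins hold unfolded clients without ATP. Hspd1 and Hspe1 form the folding chamber of the mitochondrial matrix. The transcription factor HSF1 induces the stress-responsive members by binding inverted repeats of a short unit, the heat shock element, and warm enzymatic digestion of a tissue is known to induce several of them as well.

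The promoter stretches of 4 members that differed between groups in monocytes are printed here because they show how alike the HSP70 pair is and where heat shock element letters lie. In GRCm38.p6, Hspa1a lies at chr17:34969359-34972156 and Hspa1b at chr17:34956429-34959238, both on the minus strand, Dnajb1 at chr8:83608175-83612653 and Hspb1 at chr5:135887919-135889563, both on the plus strand. The sequences are RefSeq reference sequence of GRCm38.p6, 5′ to 3′ on the gene's strand, and cover the 150 bases before the gene start, a stretch that overlaps no annotated exon. Capitals mark 2 units in turn, GAANNTTC or TTCNNGAA, with N for any base.
Hspa1a (chr17:34972157-34972306, minus strand): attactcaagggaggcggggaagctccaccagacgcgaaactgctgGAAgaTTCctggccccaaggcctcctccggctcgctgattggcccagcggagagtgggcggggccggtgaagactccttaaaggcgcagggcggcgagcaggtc
Hspa1b (chr17:34959239-34959388, minus strand): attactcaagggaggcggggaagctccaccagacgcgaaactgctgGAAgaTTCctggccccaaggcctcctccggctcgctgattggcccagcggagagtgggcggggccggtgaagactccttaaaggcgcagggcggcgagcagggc
Hspb1 (chr5:135887769-135887918, plus strand): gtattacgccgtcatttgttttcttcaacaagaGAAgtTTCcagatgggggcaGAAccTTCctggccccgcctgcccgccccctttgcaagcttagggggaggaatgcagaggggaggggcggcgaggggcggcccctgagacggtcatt
Dnajb1 (chr8:83608025-83608174, plus strand): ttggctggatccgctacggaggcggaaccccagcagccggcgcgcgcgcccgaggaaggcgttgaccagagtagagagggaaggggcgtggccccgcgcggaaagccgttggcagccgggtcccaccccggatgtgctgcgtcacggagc
The Hspa1a and Hspa1b stretches were equal at 149 of 150 bases, each with 1 such match that starts 104 bases before the gene start. The Hspb1 stretch held 2 matches, starting 117 and 97 bases before the gene start, and the Dnajb1 stretch held none. Promoter windows, 250 bases before to 50 after a gene start, were found for 7 of the 10 members. At least 1 match of 2 units was in windows of 6 of these 7 and of 17.0% of all 27025 genes with a window.

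Matches of 3 units in turn (GAANNTTCNNGAA or TTCNNGAANNTTC, which include the matches of 2 units) were in windows of 3 members, Hspd1, Hspe1 and Hsph1, and of 0.662% of all genes. The Hsph1 matches lay after the gene start. The matches of Hspd1 and Hspe1 were the same 18 bases, chr1:55088059-55088076, between the start of Hspe1 and a downstream start of Hspd1, which are read in opposite directions. They are shown within 30 bases of the Hspe1 strand, chr1:55088053-55088082.
Hspe1 (plus strand): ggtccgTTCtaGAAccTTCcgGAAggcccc
A match describes letters only, and no binding was measured here.

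The 4 libraries held 76278 barcodes and 1141117745 unique molecular identifiers (UMIs, counted transcripts), with 249881074 to 297947661 UMIs in each, and 46738 cells passed the filters. Pairs of libraries shared 90 to 114 barcodes. Clusters were named from marker genes into 20 classes, and 12.1% of cells stayed unnamed. Tests covered the 8 largest classes, each with at least 50 cells per library, and none of their defining markers was at 0. Median mitochondrial shares of cells were 5.15% and 6.64% in the BPTES libraries and 4.01% in both DMSO libraries. One library stood apart for the heat shock genes: BPTES replicate 2 had the highest value in 65 of 79 member and class pairs, where over all genes tested it was the highest in 20.3% to 36.2% of genes by class. Several differences below are given again without it.

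In monocytes, 5 of the 10 members rose under BPTES: Hspa1a, Hspa1b, Dnajb1, Hsp90aa1 and Hspb1. In dendritic cells, Dnajb1 rose. These 6 of the 79 pairs tested passed an adjusted p of 0.05 in edgeR's quasi-likelihood test with Benjamini-Hochberg adjustment over all genes of the class, all in the direction of higher levels. Of all genes tested, 5.69% were called higher in monocytes and 0.943% in dendritic cells. No member passed in the other 6 classes, where 0.182% (proximal tubule), 0.253% (macrophage), 0.382% (endothelium), 0.0332% (T cell), 0.00915% (B cell) and 0% (neutrophil) of genes were called higher. In those 6 classes 3, 6, 2, 3, 7 and 5 members had an unadjusted p under 0.05, as did 20.2%, 22.4%, 12.2%, 14.1%, 16.3% and 8.55% of all genes. DESeq2 called 0, 4, 0, 1, 4 and 1 members higher, beside 3.87%, 1.62%, 0.504%, 0.184%, 0.462% and 0.135% of all genes with an adjusted p, and 1 lower (Hspb1 in proximal tubule, where 2.31% of genes were). In monocytes and dendritic cells DESeq2 called 7 and 4 members higher, beside 5.66% and 2.2% of genes. The count of 6, beside 0.939% of all gene and class pairs called higher, became 22 with BPTES replicate 1 left out, where 1.49% of all pairs were. It was 15 and 11 with DMSO replicate 1 or 2 left out (2.39% and 1.54% of all pairs). It was 7 with BPTES replicate 2 left out (0.177% of all pairs), of which 2 pairs, Hspa1a and Hspa1b in monocytes, were among the 6. T cells went from 0 calls to 9 with BPTES replicate 1 left out (3.24% of T cell genes) and to 3 with BPTES replicate 2 left out (0.625%), namely Hspa1a, Hspa8 and Hsph1 (adjusted p = 0.00462, 0.0128 and 1.05e-05, edgeR), and had 0 with either DMSO library left out.

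Fold changes pointed to higher levels in 73 of 79 pairs, and in 56 pairs both BPTES libraries lay above both DMSO libraries. By class these were 4 of 10 members in proximal tubule (28.8% of all genes tested), 8 in macrophages (26.1%), 4 in endothelium (21.8%), 8 in T cells (22.6%), 7 in monocytes (29.9%), 9 in dendritic cells (27.3%), 9 in B cells (24.1%) and 7 of 9 in neutrophils (20.6%). In 5 pairs both BPTES libraries lay below both DMSO libraries, 3 of them in proximal tubule, where 28.6% of genes did so. The classes come from the same 4 libraries and are not independent of one another. The median log2 fold change of the members was 0.20 in proximal tubule, 0.69 in macrophages, 0.34 in endothelium, 0.60 in T cells, 0.73 in monocytes, 0.56 in dendritic cells, 0.64 in B cells and 0.64 in neutrophils, beside medians between -0.01 and 0.01 over all genes. Without BPTES replicate 2 the medians were 0.07 in proximal tubule, 0.28 in macrophages, 0.08 in endothelium, 0.31 in T cells, 0.64 in monocytes, 0.28 in dendritic cells, 0.31 in B cells and 0.42 in neutrophils, and 65 of 80 pairs pointed to higher levels.

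**Figure D1:**
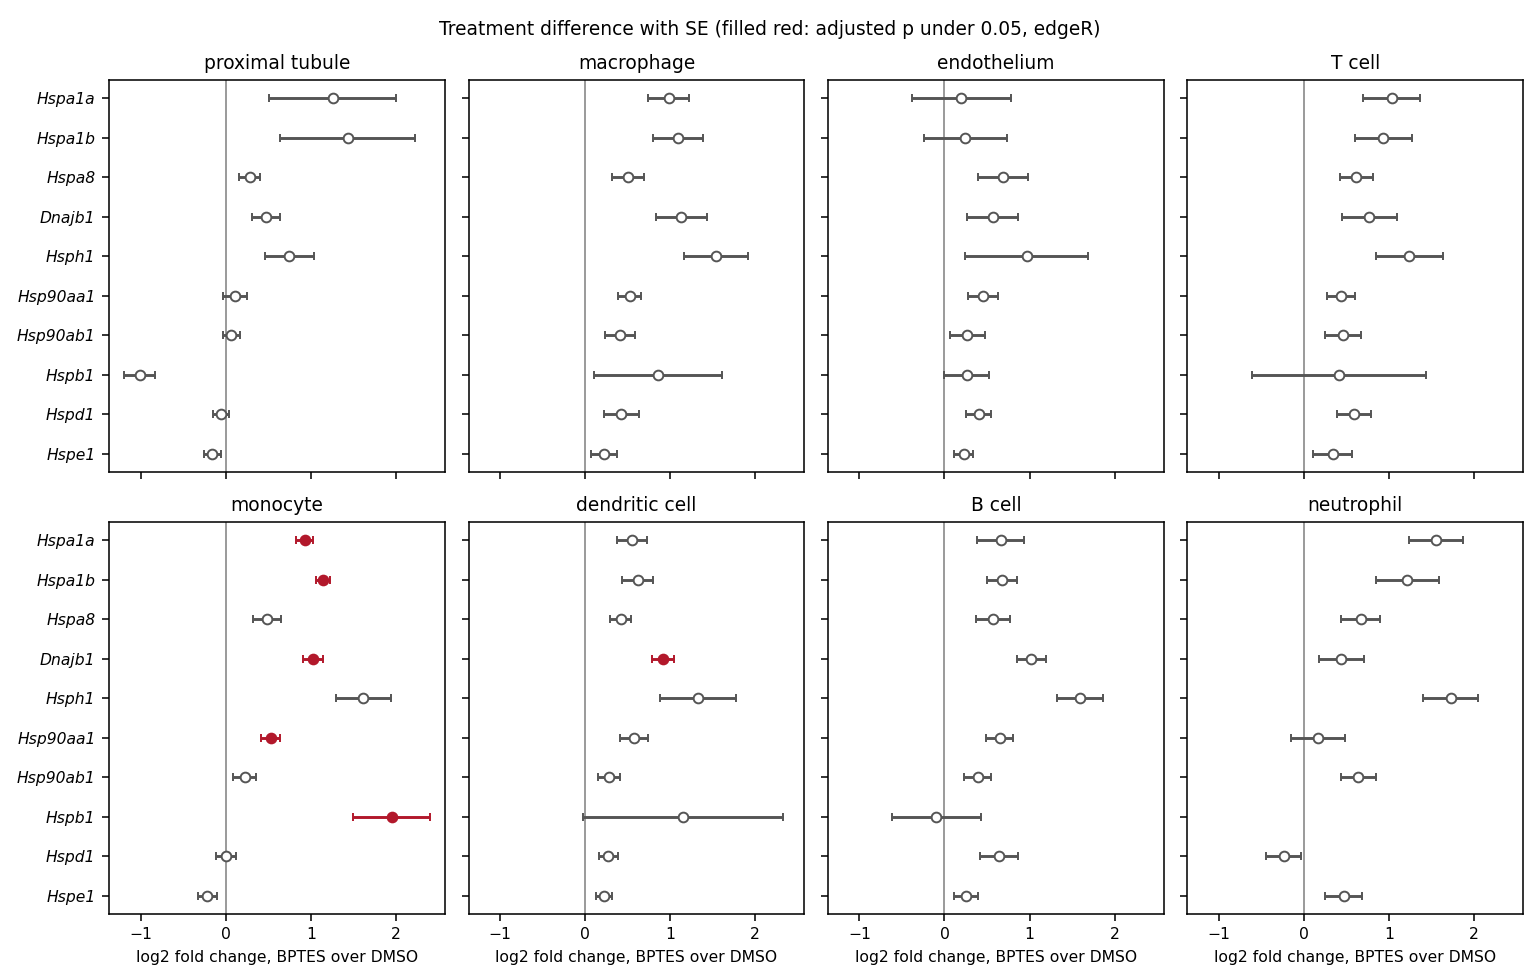
Log2 fold change of BPTES over DMSO (x axis) for each of the 10 members (y axis) in the 8 tested classes, with bars of 1 SE and filled red points where the adjusted p was under 0.05 in edgeR. The 6 red points are 5 in monocytes and 1 in dendritic cells, and Hspb1 has no point in neutrophils, where it was not tested.

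Hspa1a and Hspa1b encode almost the same inducible HSP70 protein, which is scarce in unstressed cells of many tissues. In monocytes, Hspa1a stood at 549 and 519 CPM (counts scaled to 1000000 per library and class) in the BPTES libraries and at 261 and 301 CPM in the DMSO libraries. Hspa1b stood at 483 and 473 CPM against 214 and 219 CPM. Both BPTES libraries were close to each other and well above both DMSO libraries. The log2 fold change was 0.93 (SE 0.10, adjusted p = 0.00799, edgeR) for Hspa1a and 1.14 (SE 0.08, adjusted p = 0.00527) for Hspa1b. Reads of this pair can be split or lost by counting because the transcripts are so alike. With their UMIs summed into 1 gene the adjusted p was 0.00692.

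The monocyte difference in the HSP70 pair did not rest on BPTES replicate 2. Without it the log2 fold change was 0.95 for Hspa1a (adjusted p = 0.0406, edgeR) and 1.14 for Hspa1b (adjusted p = 0.0213). Thinned to 3000 UMIs per cell, 59.8% and 57.8% of BPTES monocytes held an Hspa1a UMI against 36.0% and 38.2% of DMSO monocytes, with 463, 405, 544 and 238 cells deep enough. Without thinning the shares were 78.2% and 84.8% against 61.7% and 58.8%. In proximal tubule cells, whose Hspa1a level is set beside free RNA below, the thinned share was 1.19% to 3.95%. The difference thus spread over many cells of the class. The 9 macrophage markers summed in monocytes to 47.9% and 35.0% of their macrophage level under BPTES and to 67.3% and 45.6% under DMSO, and their part in the result was not tested.

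The monocyte class joined 2 clusters whose shares differed between libraries. Cluster 21 held 51.5% and 46.9% of the class under BPTES and 32.8% and 37.0% under DMSO. The clusters also differed in level, pooled over libraries without TMM scaling. Hspa1a was 512 CPM in cluster 21 and 358 CPM in cluster 16, Hspa1b 501 and 285, and Hsp90aa1 604 and 504. Dnajb1 was 45.2 and 42.7 CPM, and Hspb1 was lower in cluster 21 (2.10 and 5.44 CPM). The part of this make-up in the class values was not tested. Within cluster 16 alone, Hspa1a, Hspa1b and Dnajb1 rose, with log2 fold changes of 0.96, 1.24 and 1.11 (adjusted p = 0.0216, 0.0216 and 0.0229, edgeR). Within cluster 21 alone the same genes had 0.58, 0.57 and 0.71 (adjusted p = 0.185, 0.178 and 0.12), while Hsph1 passed with 1.60 (adjusted p = 0.0343). Hsp90aa1 passed in neither, with 0.47 in cluster 16 and 0.49 in cluster 21 (adjusted p = 0.122 and 0.0745, edgeR). Hspb1 did not pass in cluster 16 (2.41, adjusted p = 0.06) and has no value in cluster 21. No share of all genes called is given for these single-cluster fits. At a finer clustering, which named 1172 of the 1674 cells as monocytes, no member passed in this class, and Hspa1a had 0.56 (adjusted p = 0.207) and Hspa1b 0.65 (adjusted p = 0.259).

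In the other tested leukocyte classes the HSP70 pair was higher in both BPTES libraries over the whole class without passing the edgeR test. DESeq2 called Hspa1a in dendritic cells (adjusted p = 0.00434) and neutrophils (0.00431), and Hspa1b in B cells (0.024). Under the replicate block both genes passed in edgeR in B cells (adjusted p = 0.0262 and 0.0236), with no share of all genes given. Macrophage Hspa1a was 591 and 807 CPM under BPTES and 414 and 294 CPM under DMSO, a log2 fold change of 0.98 (SE 0.24, adjusted p = 0.124, edgeR). Neutrophils had the largest Hspa1a difference of the 8 classes, at 158 and 141 CPM against 34.1 and 66.9 CPM (log2 1.55, SE 0.31, adjusted p = 0.37). That class joined 2 clusters of unlike level whose shares differed between libraries. Cluster 45, the smaller, held 18.8% and 16.4% of BPTES neutrophils and 6.97% and 8.98% of DMSO neutrophils, with Hspa1a at 370 and 375 CPM against 108 and 224 CPM (here without TMM scaling). In cluster 17, which held the rest, Hspa1a was 6.84 and 13.98 CPM against 11.8 and 24.7 CPM, and the groups overlapped. Hspa1b there was lower in both BPTES libraries, at 10.3 and 11.1 CPM against 12.2 and 56.9 CPM. With DMSO replicate 1 or 2 left out the log2 fold change of the class was 1.14 or 2.14 for Hspa1a and 0.71 or 2.01 for Hspa1b. With doublets kept it was 0.70 for Hspa1a. T cell, dendritic cell and B cell values of Hspa1a differed by 1.03, 0.55 and 0.66 on the log2 scale with adjusted p of 0.378, 0.158 and 0.32 (edgeR). Both BPTES libraries lay above both DMSO libraries in these 3 classes, and without BPTES replicate 2 the differences were 0.62, 0.37 and 0.27. The B cell class joined clusters 12 and 47, and in cluster 12, which held 79.4% to 98.7% of its cells, Hspa1a was 159 and 315 CPM under BPTES and 89.3 and 70.1 CPM under DMSO without TMM scaling. The log2 ratio of the group means there was 1.57, or 1.00 without BPTES replicate 2, with no test. In cluster 47 Hspa1a was 658 and 305 CPM against 387 and 320.1 CPM, from 6 and 4 BPTES cells and 20 and 56 DMSO cells.

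Endothelium and proximal tubule went otherwise. Endothelial Hspa1a overlapped between groups, at 232 and 491 CPM under BPTES and 245 and 379 CPM under DMSO (log2 0.20, SE 0.58, adjusted p = 0.94, edgeR), and without BPTES replicate 2 the log2 fold change was -0.44. Proximal tubule Hspa1a was 4.53 and 16.3 CPM against 3.75 and 4.93 CPM, so that only BPTES replicate 2 was high. Free RNA of other cells also gives UMIs: Hspa1a in proximal tubule was 0.757% to 1.93% of its macrophage level, while the summed level of 9 macrophage markers in proximal tubule was 1.40% to 2.76% of theirs. Hspa1b was 0.681% to 1.77%. Both genes were below the marker share in 3 libraries and above it in DMSO replicate 2 (1.68% and 1.55% against 1.40%), and the part of free RNA in these values was not tested. Dnajb1 and Hsph1 in proximal tubule were at 21.5% to 42.4% and 39.7% to 94.1% of their macrophage levels.

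**Figure D2:**
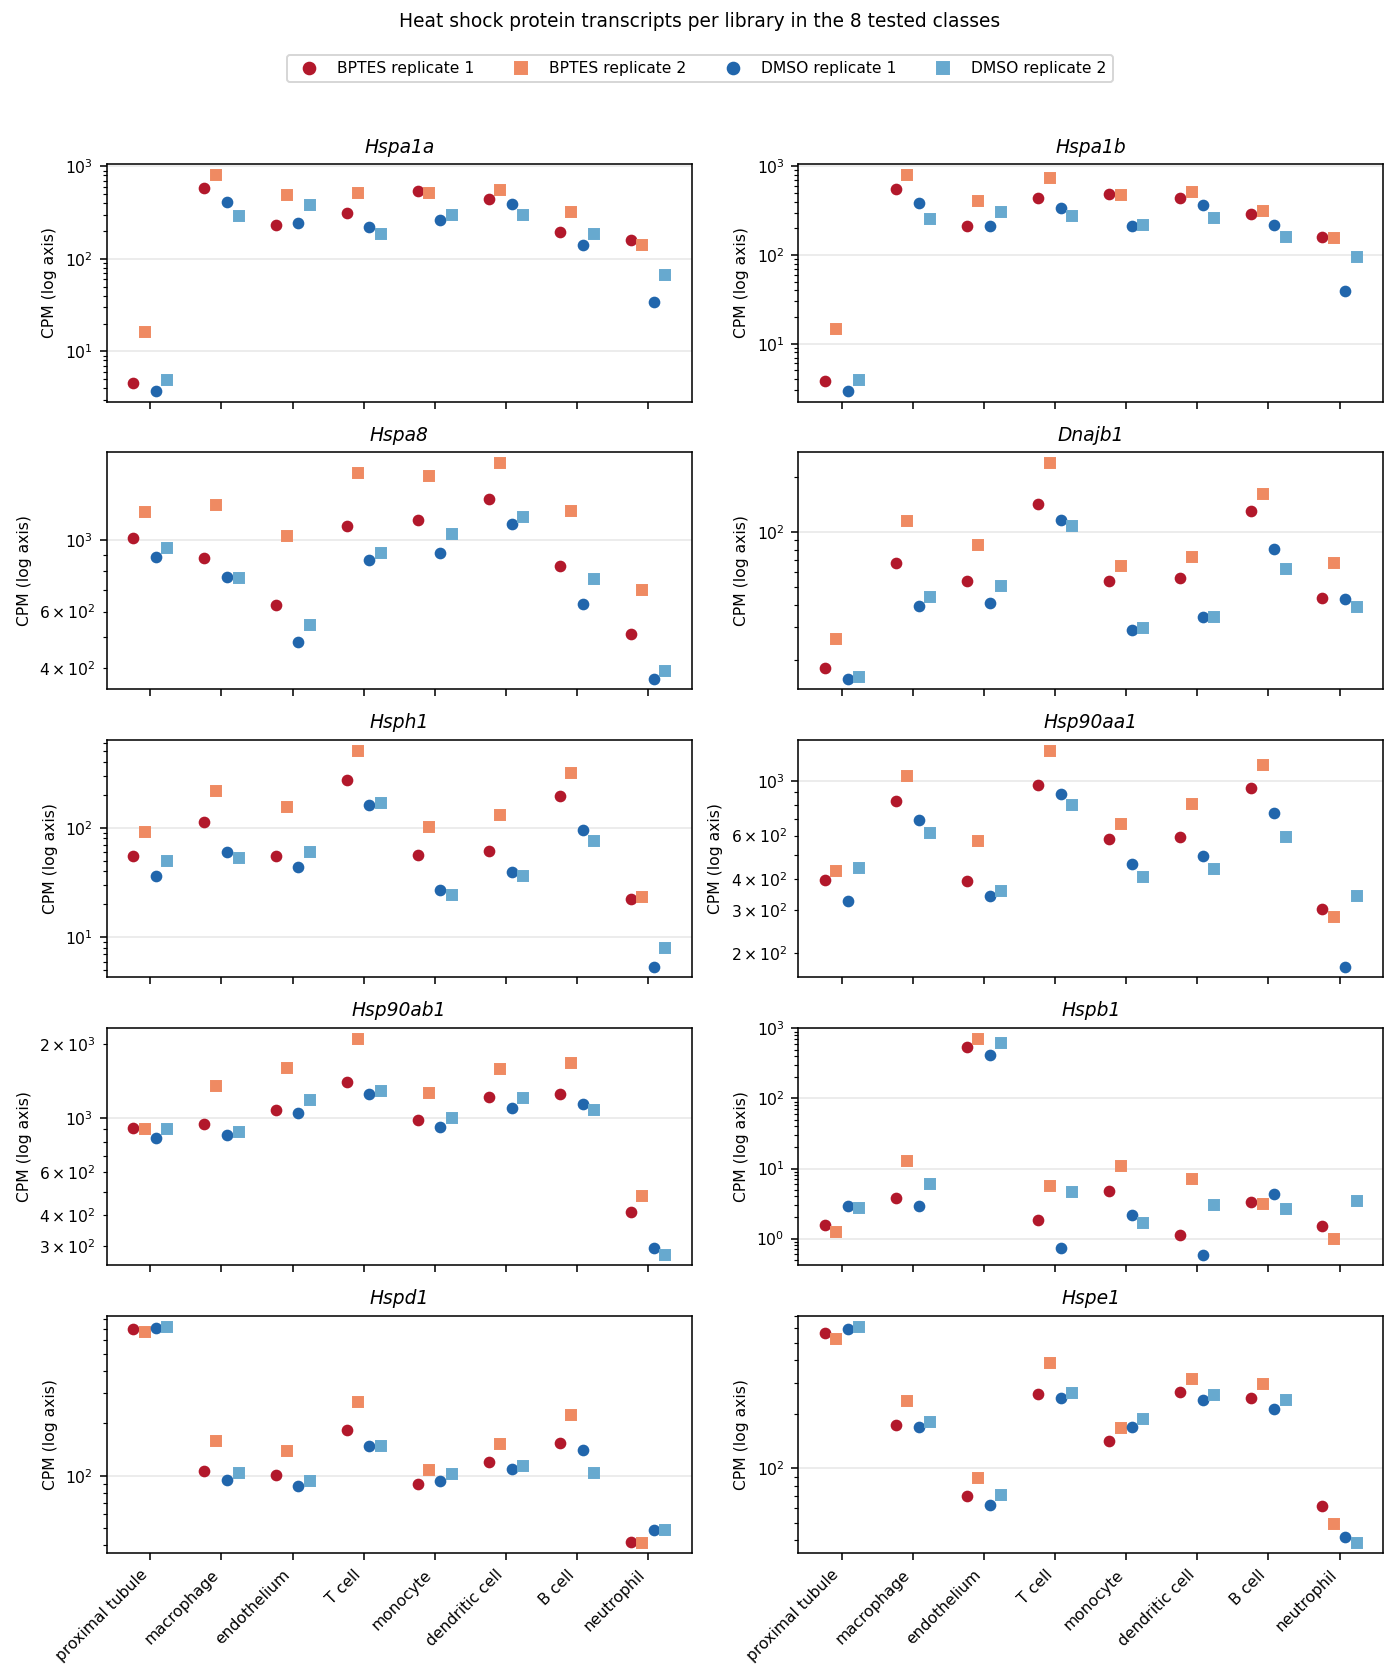
CPM of each library (log y axis, a panel per gene) in the 8 tested classes (x axis), with BPTES libraries in red and orange and DMSO libraries in blue. BPTES replicate 2, the orange squares, is the highest in 65 of 79 tested pairs, and a value of 0 (Hspb1 in neutrophils of DMSO replicate 1) is not drawn.

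Dnajb1 is the J-domain protein that delivers clients to HSP70. It was higher in both BPTES libraries in all 8 classes. In monocytes it rose from 28.9 and 29.9 CPM under DMSO to 54.0 and 65.5 CPM under BPTES, a log2 fold change of 1.03 (SE 0.12, adjusted p = 0.00898, edgeR). In dendritic cells it rose from 34.3 and 34.1 CPM to 56.0 and 73.3 CPM, a log2 fold change of 0.92 (SE 0.13, adjusted p = 0.0318). The groups did not overlap in either class, and the DMSO libraries were nearly equal. Without BPTES replicate 2 the adjusted p was 0.052 in monocytes (log2 0.86) and 0.137 in dendritic cells (log2 0.71), and without BPTES replicate 1 it was 0.0552 in dendritic cells (log2 1.10). The dendritic cell class also joined 2 clusters, and the adjusted p within them was 0.0951 and 0.147 with log2 fold changes of 0.97 and 0.88. B cell Dnajb1, at 131 and 161 CPM against 80.8 and 62.9 CPM, stood just outside the threshold (log2 1.02, SE 0.17, adjusted p = 0.0625, edgeR). It passed in DESeq2 (adjusted p = 0.000914) and, with no share of all genes given, under the replicate block (adjusted p = 0.000814, edgeR). With a library left out the log2 fold change was 0.85 to 1.22. Cluster 47 made up 1.68% and 1.32% of B cells under BPTES and 6.47% and 20.6% under DMSO, and macrophage markers in the class ran from 6.01% of their macrophage level in BPTES replicate 2 to 36.1% in DMSO replicate 2. The part of either in the class values was not tested. In cluster 12 Dnajb1 was 134 and 160 CPM under BPTES and 84.8 and 81.9 CPM under DMSO without TMM scaling, and the groups did not overlap.

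Hsph1, which resets HSP70 by exchanging its nucleotide and also holds unfolded clients, had the largest median difference of the set and passed the edgeR test in no class. Its log2 fold change ran from 0.75 in proximal tubule to 1.73 in neutrophils, with a median of 1.44 over the 8 classes. Without BPTES replicate 2 the median was 0.87, and the difference was 0.35 in proximal tubule, 0.10 in endothelium and 0.74 in T cells. In neutrophil cluster 17, which held 81.25% to 93.03% of that class, Hsph1 was 5.38 and 8.68 CPM under BPTES and 4.97 and 5.26 CPM under DMSO, a log2 ratio of means of 0.46, and in cluster 45 it was 46.6 and 50.1 CPM against 5.21 and 19.2 CPM. In monocytes it was 56.4 and 102 CPM under BPTES and 27.0 and 24.2 CPM under DMSO (log2 1.62, SE 0.33, adjusted p = 0.0602, edgeR). B cells had 195 and 319 CPM against 95.1 and 75.5 CPM (log2 1.59, SE 0.27, adjusted p = 0.109), and B cell cluster 12 alone had 197 and 319 CPM against 96.0 and 86.6 CPM. In both classes the BPTES libraries lay above the DMSO libraries but far apart from each other. Groups did not overlap in 7 of 8 classes, with endothelium the exception. Without BPTES replicate 1 the monocyte log2 fold change was 1.99, and without BPTES replicate 2 it was 1.12. With a library left out the value stayed above 0 in every class. It ran from 0.10 in endothelium without BPTES replicate 2 to 2.07 in neutrophils without DMSO replicate 2. DESeq2 called Hsph1 higher in macrophages (adjusted p = 0.0252), monocytes (1.29e-07) and B cells (9.49e-08). Of all genes, DESeq2 called 1.62%, 5.66% and 0.462% higher in these classes. Under the replicate block Hsph1 passed in edgeR in proximal tubule (adjusted p = 1.71e-05) and B cells (0.0198), with no share of all genes given.

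Hspa8, the HSP70 protein that works in unstressed cells, was higher in both BPTES libraries in all 8 classes and passed the edgeR test in none. The log2 fold changes were 0.28 to 0.69 (0.15 to 0.37 without BPTES replicate 2). DESeq2 called it higher in macrophages (adjusted p = 0.0426), monocytes (0.0318) and dendritic cells (0.0104). Under the replicate block it passed in edgeR in proximal tubule (adjusted p = 0.0299) and dendritic cells (0.0379), with no share of all genes given. In monocytes it was 1155 and 1589 CPM against 912 and 1045 CPM (log2 0.49, SE 0.17, adjusted p = 0.126, edgeR). In proximal tubule it was 1015 and 1222 CPM against 888 and 949 CPM (log2 0.28, SE 0.12, adjusted p = 0.244), or 0.15 without BPTES replicate 2. Unlike the inducible pair, its difference in monocytes lay mostly in BPTES replicate 2, and without that library it was 0.22.

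Hsp90aa1 is the stress-responsive and Hsp90ab1 the constitutive cytosolic HSP90. In monocytes Hsp90aa1 rose from 460.1 and 407 CPM under DMSO to 583 and 670.1 CPM under BPTES, a log2 fold change of 0.53 (SE 0.11, adjusted p = 0.0341, edgeR). Groups did not overlap, and the call was lost with BPTES replicate 1 left out (log2 0.63, adjusted p = 0.0579), with BPTES replicate 2 left out (log2 0.41, adjusted p = 0.164) and with DMSO replicate 2 left out (log2 0.42, adjusted p = 0.0807). The median over 8 classes was 0.49 for Hsp90aa1 and 0.33 for Hsp90ab1, and 0.26 and 0.11 without BPTES replicate 2. Hsp90ab1 passed in no class, and in monocytes its 982 and 1259 CPM under BPTES overlapped the 919 and 999 CPM under DMSO (log2 0.22, SE 0.13, adjusted p = 0.325), with 0.02 without BPTES replicate 2. In proximal tubule both HSP90 genes were close to even, with log2 fold changes of 0.11 and 0.07.

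**Figure D3:**
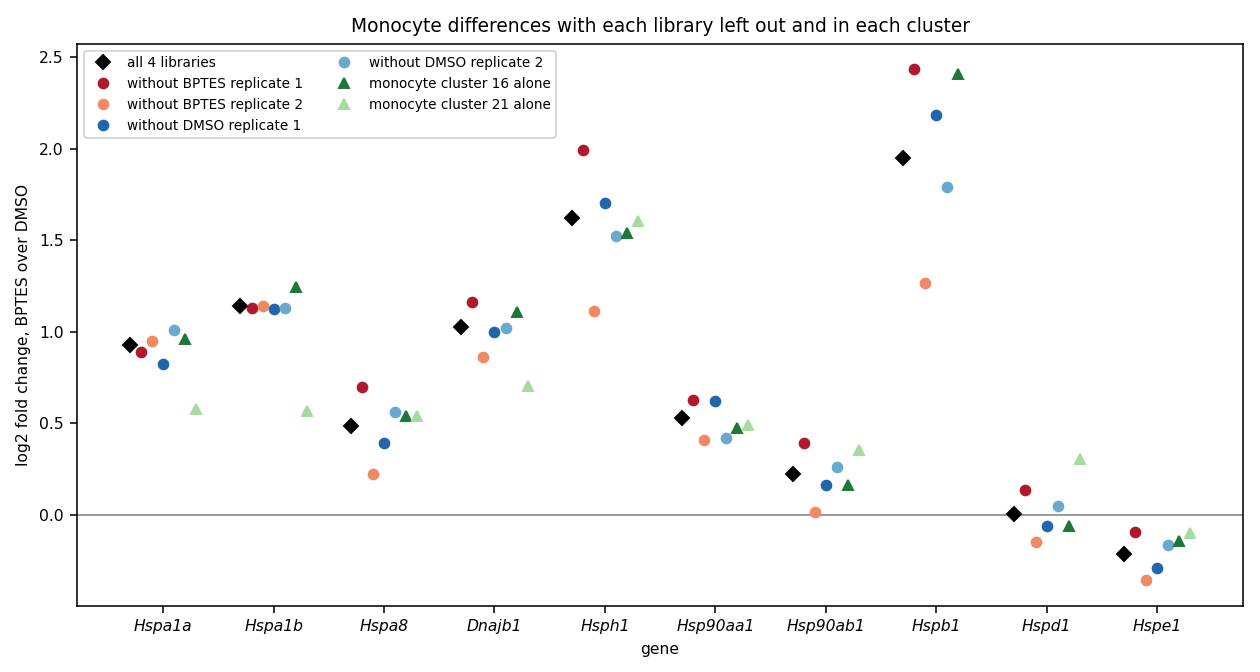
Log2 fold change of BPTES over DMSO in monocytes (y axis) for each member (x axis) with all 4 libraries, with each library left out and within each of the 2 clusters. Hspa1b stays between 1.12 and 1.14 with a library left out, while Hsph1 and Hspb1 fall most without BPTES replicate 2, to 1.12 and 1.27.

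Hspb1, a small heat shock protein that also binds actin filaments, was highest in endothelium among the named classes. Endothelium held 541 and 710.0 CPM under BPTES and 421 and 620.4 CPM under DMSO, overlapping values with a log2 fold change of 0.26 (SE 0.27, adjusted p = 0.79, edgeR). It was 0.05 without BPTES replicate 2, 0.01 without DMSO replicate 1, 0.45 without BPTES replicate 1 and 0.57 without DMSO replicate 2. In monocytes Hspb1 rose from 2.19 and 1.69 CPM to 4.84 and 10.8 CPM (log2 1.95, SE 0.45, adjusted p = 0.0482), which rests on 36 and 12 UMIs against 54 and 99 UMIs. The level was between 0.271% (DMSO replicate 2) and 1.5% (BPTES replicate 2) of the endothelial level, while 9 endothelial markers summed to 1.24% and 1.48% of theirs in BPTES monocytes and to 0.582% and 0.692% in DMSO monocytes. The markers moved in the same direction as the gene, and their part in the result was not tested. Without BPTES replicate 2 the adjusted p was 0.18 (log2 1.27). Leaving out DMSO replicate 1 gave 0.139 and DMSO replicate 2 gave 0.128, and with heat shock genes kept out of the clustering it was 0.206. In proximal tubule Hspb1 was the largest negative difference of the set, at 1.54 and 1.26 CPM under BPTES and 2.94 and 2.72 CPM under DMSO (log2 -1.01, SE 0.18, adjusted p = 0.0624). With heat shock genes kept out of the clustering the log2 fold change was -2.38 (adjusted p = 0.263, edgeR). The difference passed in DESeq2 (adjusted p = 0.00245) and, with no share of all genes given, under the replicate block (adjusted p = 0.000629, edgeR). With a library left out it was -0.87 to -1.17. Hspb1 in proximal tubule was 0.168% to 0.729% of the endothelial level, where the endothelial markers were at 0.0369% to 0.0814%. Injured tubule cells, a class with 33 and 34 BPTES cells and 226 and 261 DMSO cells, held 57 to 222 CPM of it, and whether such cells or their free RNA are part of the tubule values was not tested.

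Hspd1 and Hspe1, which fold proteins imported into mitochondria, were tested in all 8 classes. In proximal tubule Hspd1 was 700.3 and 666 CPM under BPTES and 703 and 718 CPM under DMSO (log2 -0.06, SE 0.10, adjusted p = 0.761, edgeR). Hspe1 there was 563 and 521 CPM against 597 and 612 CPM (log2 -0.16, SE 0.10, adjusted p = 0.382). For both genes the BPTES libraries lay below the DMSO libraries, by less than 2 SE. The median mitochondrial share of proximal tubule cells was 15.8% and 21.3% under BPTES and 11.97% and 15.65% under DMSO, and its part in these levels was not tested. In T cells Hspd1 was 183 and 265 CPM against 149 and 148 CPM (log2 0.59, SE 0.20, adjusted p = 0.33), and without BPTES replicate 2 the difference was 0.30. Neither gene passed the edgeR test in any class, and in monocytes they had log2 fold changes of 0.01 and -0.21. DESeq2 called Hspd1 higher in T cells (adjusted p = 0.0414).

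Whether the treatment difference varied among classes was tested as an interaction over the 8 classes. No member passed (edgeR), the lowest adjusted p being 0.0805 for Dnajb1 and 0.0855 for Hspd1, and 4 members had an unadjusted p under 0.05. Of all 16703 genes, 4.9% passed and 3333 genes had an unadjusted p under 0.05. The calls in monocytes are therefore not shown to be particular to monocytes. Summed over all named cells, 0 of the 10 members passed in edgeR, where 0.0746% of genes did, 6 had an unadjusted p under 0.05 (18.0% of genes) and DESeq2 called 4 higher (4.45% of genes). Hsph1 had the largest difference there, at 71.7 and 129 CPM against 45.2 and 50.0 CPM (log2 1.07, SE 0.29, adjusted p = 0.212), or 0.60 without BPTES replicate 2.

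The levels over the 20 classes, in all 4 libraries, had a different order for different members, and no test between classes was run. Hspa1a was highest in macrophages, at 527 ± 223 CPM (SD, n = 4), followed by dendritic cells (424 ± 111), monocytes (407 ± 148) and endothelium (337 ± 122), whose ranges overlapped from one to the next. It was lowest in injured tubule (13.3 ± 8.44) and proximal tubule (7.39 ± 5.99). Hspa1b had the same class at the top (496 ± 236 CPM) and the same 2 classes at the bottom. Of the named classes, Dnajb1 was highest in NK cells (179 ± 50.2 CPM), and Hsph1 (277 ± 160 CPM) and Hsp90aa1 (992 ± 230.0 CPM) in T cells, each within the range of the next class. Unnamed cells were left out of these orders and of the tests. Unnamed cluster 13, with 1155 cells, held more of 4 members. Pooled over libraries without TMM scaling, Hspa1b was 714, Dnajb1 219, Hsph1 433 and Hsp90aa1 1233 CPM there. The other members there were below their highest class means.

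Hspa8 peaked in cycling cells (1410 ± 276 CPM) and Hsp90ab1 in innate lymphoid cells (1510 ± 276 CPM), again overlapping the next class. Hsp90ab1 was lowest in neutrophils (366 ± 96.4 CPM). Hspb1 was highest in endothelium (573 ± 123 CPM), and its range there did not overlap that of mural cells (198 ± 126 CPM), the next class. Injured tubule followed (152 ± 80.2 CPM). In NK cells, innate lymphoid cells and plasmacytoid dendritic cells Hspb1 averaged 0.43 CPM or less. Hspd1 was highest in proximal tubule (697 ± 21.9 CPM), then injured tubule (504 ± 51.3 CPM) and thick ascending limb (263 ± 34.3 CPM), and the first 2 steps were free of overlap. Hspe1 had the same first 2 classes, at 573 ± 40.5 and 453 ± 18.3 CPM, and both genes were lowest in neutrophils (45.2 ± 4.28 and 47.9 ± 10.3 CPM).

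**Figure D4:**
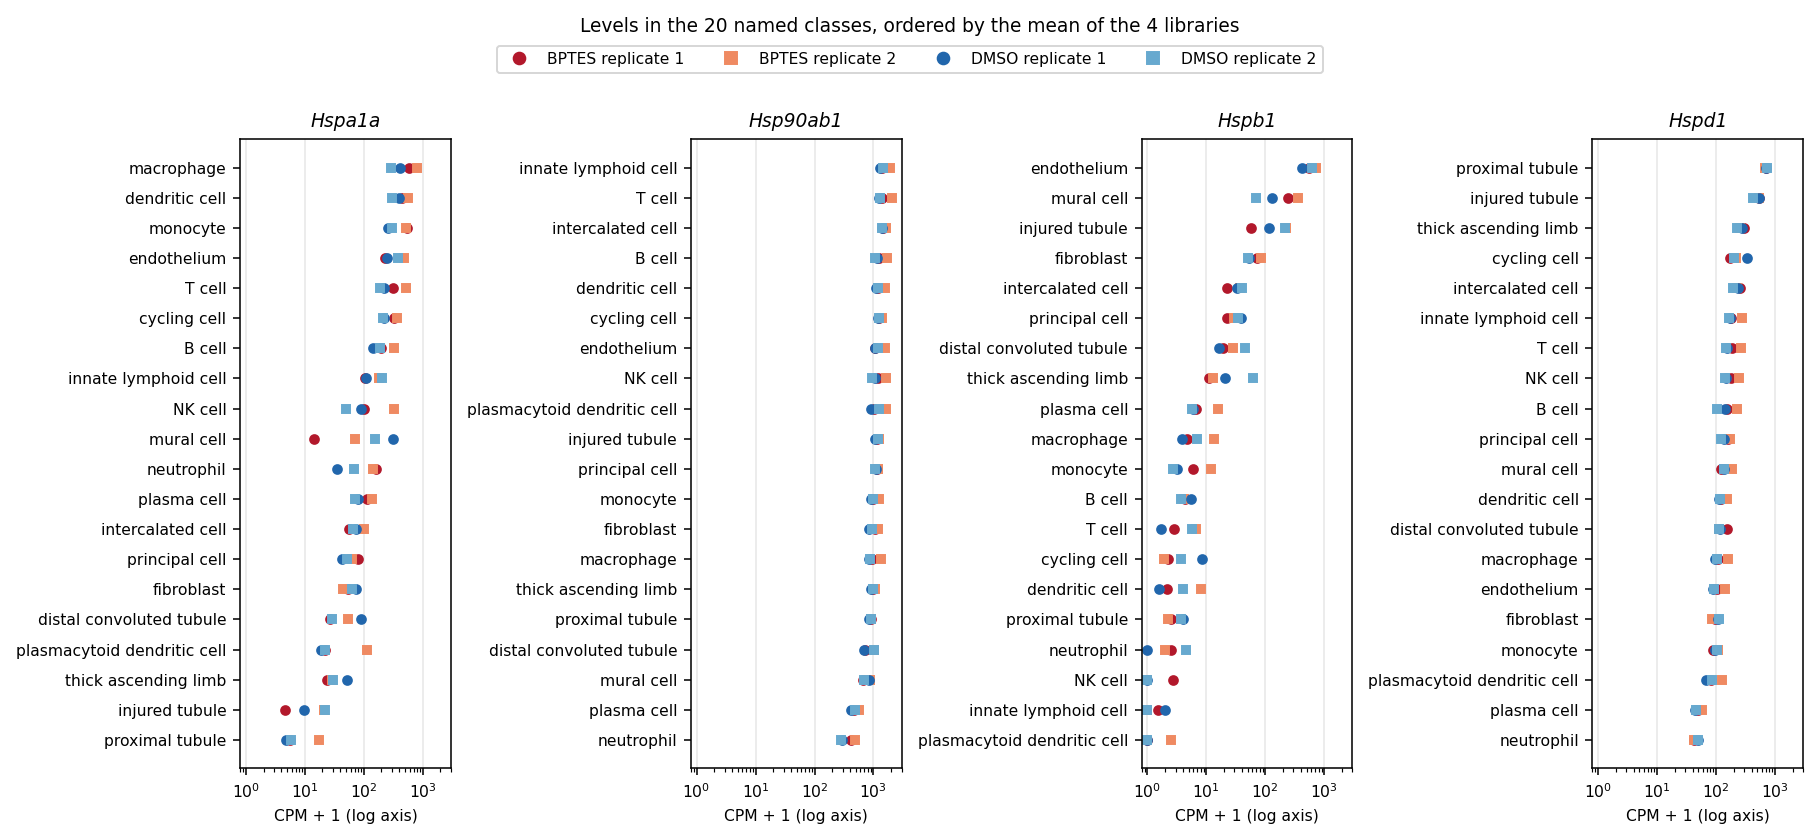
CPM + 1 (log x axis) of Hspa1a, Hsp90ab1, Hspb1 and Hspd1 in the 20 named classes (y axis, ordered by the mean of the 4 libraries), with a point per library. Hspa1a runs from macrophages at the top to proximal tubule at the bottom, and Hspd1 has proximal tubule at the top.

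In the 12 classes that were not tested, the mean of the BPTES libraries was above that of the DMSO libraries in 6 for Hspa1a and in 9 for Hspa1b. Mural cells had Hspa1a at 13.5 and 69.6 CPM under BPTES and 315 and 156 CPM under DMSO, with 32 to 105 cells in a library. Hspa1b there was 14.9 and 66.2 CPM against 216 and 94.8 CPM. Thick ascending limb had Hspa1a at 22.8 and 28.3 CPM against 50.2 and 29.7 CPM, and Hspa1b at 31.3 and 42.5 CPM against 65.4 and 44.4 CPM. Fibroblasts had Hspa1a at 52.5 and 42.8 CPM against 73.8 and 63.4 CPM, while Hspa1b overlapped. No other of the 12 classes had both BPTES libraries below both DMSO libraries for either gene, and none of these values carries a test. Classes with the opposite order are not listed here. No share of all genes is given for either order in these classes, so the named cases do not show a change particular to the pair.

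Across the 13 classes with at least 50 cells in every library, the log2 CPM of Hspa1a and Hspa1b ran together (Pearson r = 0.97), as did Hsph1 and Hsp90aa1 (0.82) and Hspd1 and Hspe1 (0.81). Hspa1a and Hspd1 ran against each other (-0.63). These values describe 13 class means that share 4 libraries. Among 7663 genes with a mean of at least 20 CPM, those with the pattern most like Hspa1a were Dpysl2 (0.97), Hspa1b (0.97) and Slc30a7 (0.96). For Hsp90ab1 they were Armc10, Efr3a and Fam98b (0.96 each), for Hspb1 Mcc (0.95), Hspg2 (0.94) and Rbms2 (0.94), and for Hspd1 Park7 (0.97), Mrps26 (0.95) and Cpox (0.95).

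Few genes of the wider chaperone network passed the test. Of 83 other chaperone and heat shock genes in 7 lists, 610 gene and class pairs were tested in edgeR. Of these pairs 1 rose and 2 fell, all in monocytes, where 5.69% of all genes were called higher and 3.67% lower. Bag3, a co-chaperone that links HSP70 to small heat shock proteins and autophagy, rose from 36.0 and 43.8 CPM to 62.2 and 72.9 CPM (log2 0.77, SE 0.13, adjusted p = 0.0216). Hsbp1, which binds and restrains HSF1, fell from 86.2 and 95.5 CPM to 69.7 and 68.5 CPM (log2 -0.39, SE 0.09, adjusted p = 0.0496), and Calr, a calcium-binding chaperone of the endoplasmic reticulum, fell from 477 and 526 CPM to 345 and 385 CPM (log2 -0.46, SE 0.10, adjusted p = 0.0395). Groups did not overlap for any of the 3. Of the named calls, Bag3 was lost without BPTES replicate 2 (adjusted p = 0.114), Calr with either BPTES library or DMSO replicate 2 left out (0.0649 to 0.16), and Hsbp1 with any library left out (0.0501 to 0.184). The counts depended on single libraries as well. With BPTES replicate 1 left out 36 pairs were called higher and 0 lower (1.49% and 0.823% of all gene and class pairs), and with BPTES replicate 2 left out 4 and 1 (0.177% and 0.165%). Leaving out DMSO replicate 1 gave 7 and 15 (2.39% and 3.76%), and DMSO replicate 2 gave 12 and 1 (1.54% and 1.82%).

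By list, the heat shock factor axis had 1 higher and 1 lower call in 80 pairs and endoplasmic reticulum chaperones 1 lower call in 122. There was none among the other cytosolic HSP70, HSP110 and J-domain proteins (154 pairs), HSP90 co-chaperones (96), other small heat shock proteins (22), the cytosolic chaperonin CCT (56) and the mitochondrial chaperones and proteases (80). HSP90 co-chaperones had positive medians in all 8 classes, from 0.02 in proximal tubule to 0.33 in endothelium on the log2 scale, and without BPTES replicate 2 from -0.03 in proximal tubule to 0.28 in B cells, with macrophages also just below 0. In proximal tubule, 15 of 16 endoplasmic reticulum chaperones had positive fold changes with a median of 0.36, and 0 of 10 mitochondrial chaperones and proteases did, with a median of -0.10, beside a median of -0.01 over all genes. Without BPTES replicate 2 the endoplasmic reticulum median was 0.13 and without DMSO replicate 1 it was 0.15. None of these genes passed in that class. The endoplasmic reticulum list pointed the other way in macrophages (3 of 15 positive, median -0.17), monocytes (4 of 15, -0.17) and B cells (3 of 15, -0.09), where the medians without BPTES replicate 2 were -0.33, -0.36 and -0.16. Its medians in the other 4 classes ran from -0.0001 in endothelium to 0.10 in dendritic cells. The mitochondrial list had medians from -0.19 in neutrophils to 0.15 in endothelium.

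Immediate early genes, which warm digestion of tissue also induces, were measured beside the members. Of 142 pairs of 18 such genes and 8 classes, 8 fell and 1 rose in edgeR. The share of all genes called lower was 0.238% in proximal tubule, 0.838% in macrophages, 0.398% in endothelium, 0.0582% in T cells, 3.67% in monocytes, 1.08% in dendritic cells, 0.238% in B cells and 0% in neutrophils. The falls were 2 of 17 genes tested in proximal tubule, 1 of 18 in macrophages, 1 of 17 in endothelium, 1 of 18 in monocytes, 2 of 18 in dendritic cells and 1 of 18 in B cells, and the rise was 1 of 18 in monocytes, where 5.69% of genes were called higher. Egr1, an early growth response factor, fell in endothelium from 330 and 386 CPM to 175 and 162 CPM (log2 -1.08, SE 0.10, adjusted p = 0.000472). Egr2 fell in dendritic cells from 28.6 and 30.6 CPM to 15.5 and 12.1 CPM (log2 -1.10, SE 0.14, adjusted p = 0.0227). Ier3 fell in B cells from 15.2 and 26.7 CPM to 0.765 and 2.08 CPM (log2 -3.95, SE 0.51, adjusted p = 0.04). By cluster, Ier3 was at 0.55 and 0.357 CPM against 1.49 and 0 CPM in cluster 12, where the groups overlapped, and at 3.5 and 33.1 CPM against 76.1 and 58.9 CPM in cluster 47, which made up more of the DMSO B cells. The part of this make-up in the fall was not tested. Egr2 also fell in monocytes and Ier3 in dendritic cells, and the rise was Nr4a1 in monocytes. The dendritic cell call of Egr2 and the B cell call of Ier3 were lost with either BPTES library left out (adjusted p = 0.0761 and 0.137 for Egr2, 0.239 and 0.318 for Ier3). The 9 calls became 16 and 5 with BPTES replicate 1 or 2 left out, and 49 and 24 with DMSO replicate 1 or 2 left out, where 2.32%, 0.342%, 6.15% and 3.35% of all pairs were called in either direction.

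The summed level of the 18 genes was set beside that of 4 members, a sum that leaves out Hspb1 and the stress-responsive Hsp90aa1. In proximal tubule it was 331 and 298 CPM under BPTES and 442 and 517 CPM under DMSO, while Hspa1a, Hspa1b, Dnajb1 and Hsph1 summed to 82.6 and 138 CPM against 62.1 and 75.5 CPM. In monocytes the immediate early sum overlapped between groups, at 9392 and 8954 CPM against 7972 and 10420.1 CPM, and the same 4 members summed to 1141 and 1130.2 CPM against 548 and 571 CPM. In proximal tubule Hsp90aa1, which is not in the sum, had a log2 fold change of 0.11. Hspb1 had -1.01 there. The part of tissue handling in the member values was not tested.

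**Figure D5:**
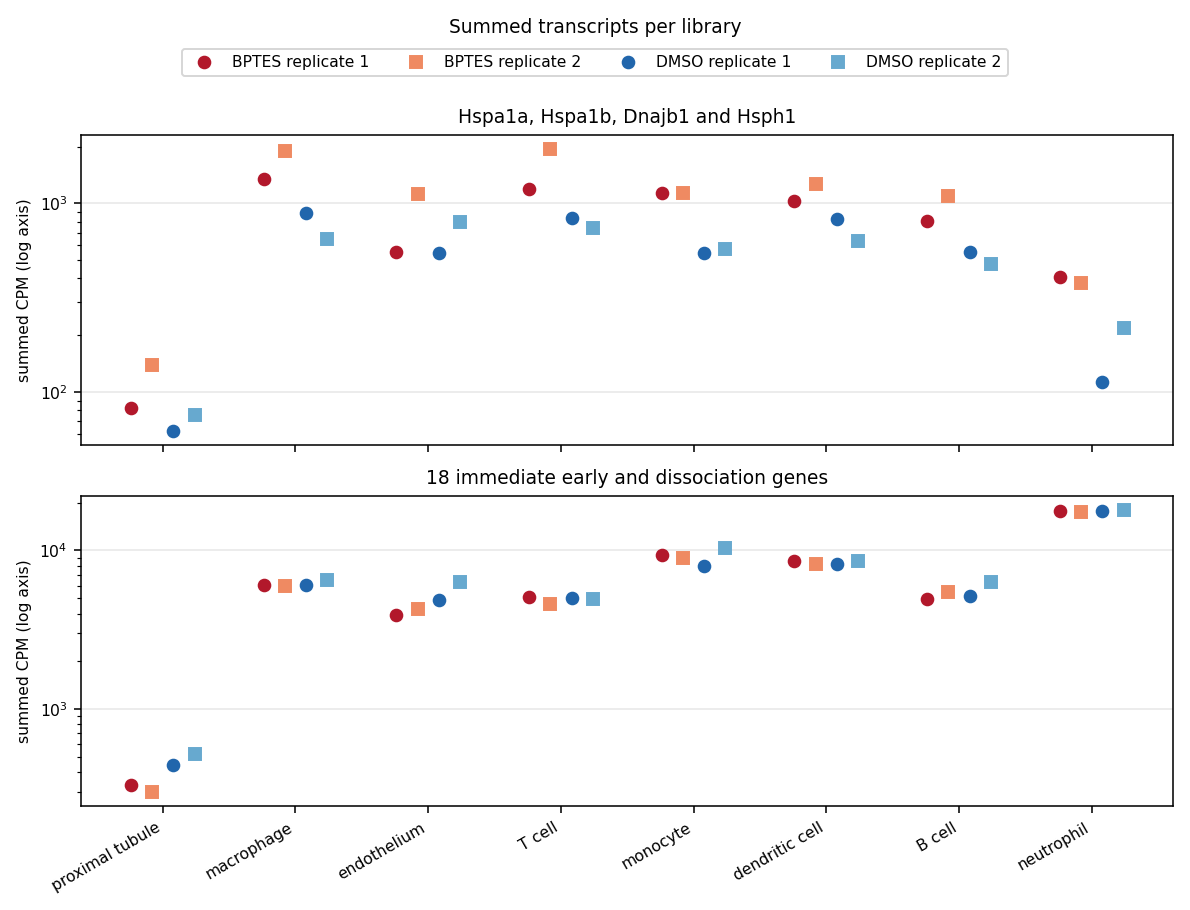
Summed CPM per library (log y axis) of Hspa1a, Hspa1b, Dnajb1 and Hsph1 (upper panel) and of 18 immediate early and dissociation genes (lower panel) in the 8 tested classes (x axis). The upper sum is higher in both BPTES libraries in every class but endothelium. The lower sum is lower in both BPTES libraries in proximal tubule and endothelium. It is also lower, by little, in macrophages (6056 and 5992 against 6089 and 6499 CPM) and neutrophils (17737 and 17408 against 17776 and 17987 CPM).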

How the data were processed

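The deposited files hold UMI counts, not normalized, for the genes and barcodes of 4 libraries. Per the submitters' processing notes the authors used Cell Ranger 8.0.1 and mm10. No other step of the authors' processing is given in the sources used here. Barcodes with at least 500 UMIs, 300 genes and at most 50% mitochondrial UMIs were kept (50605 of 76278). The cells with the highest doublet scores were then removed, up to an assumed rate of 0.4% per 1000 barcodes (3867 cells). The cutoff of the scoring tool itself would have called 700. Cells were clustered with scanpy 1.11.5 and leidenalg 0.10.2 (3000 variable genes, 40 principal components, 15 neighbours, resolution 1) into 50 clusters and named from markers of 26 cell types. The variable genes included Hspa1a, Hspa1b, Hspb1 and Hsph1. Clustering was repeated without the members and all listed genes, which include the other chaperones and the 18 immediate early genes. This is the clustering without heat shock genes named above and below. Counts were summed per library and class and tested in edgeR 4.0.16 (TMM scaling, low-count filter, quasi-likelihood, two-sided, Benjamini-Hochberg over all genes of a class, threshold 0.05) in R 4.3.3, with DESeq2 1.42.0 as an alternative. CPM use the TMM-scaled library sizes, except summed levels and values within B cell and neutrophil clusters, which were added after seeing the data. With 2 libraries a group an exact permutation test cannot go below p = 0.333, so none was run. On simulated counts, 81 of 100 genes changed 2-fold (1 on the log2 scale) and 100 of 100 changed by 2 on the log2 scale were recovered in monocytes (12211 genes). These counts were drawn with the same assumed spread for every gene, with changes only in genes above a count floor. No simulated library stood apart as BPTES replicate 2 does. The recovered shares therefore do not give the power of the tests on the real libraries.

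The alternatives tried were a block for the replicate number, DESeq2, testing without the low-count filter, scaling by RLE, each library left out, a 25% mitochondrial limit, doublets kept and 2 other clusterings. Leaving out a library leaves a lone library, which is assumed to vary like the other group. Summing Hspa1a with Hspa1b, single clusters, leaving out a cluster led by mitochondrial genes and a crossed pairing were added after seeing the data. All members are named in every comparison; of each gene list the up to 3 genes called in most classes (ties by p) are named, and for 4 members the 3 genes with the most similar class pattern. Members and lists were chosen with earlier results of these data known. Tags of 3′ libraries are not scaled by length, so levels are not compared between genes.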

Additional observations from a re-analysis of the deposited data

How the results depend on the processing

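Each group has 2 libraries, so 1 library can decide a call. Of the member, class and alternative values, 891 kept their direction and side of the threshold, 108 passed only under the alternative, 18 no longer passed and 18 reversed. The 6 higher member calls became 21 with DESeq2, 28 without the low-count filter, 1 at the finer clustering and 7 to 22 with a library left out. The 0 lower calls became 1 with DESeq2 or without the filter and 0 to 1 with a library left out. The 0 calls over all named cells became 4 with DESeq2 and 0 to 1 with a library left out. Of other chaperones, the 1 higher call became 20 with DESeq2, 46 without the filter, 0 at the finer clustering, 2 when clustered without heat shock genes, 2 in single clusters and 4 to 36 with a library left out. Their 2 lower calls became 5, 17 without the filter, 0 in single clusters and 0 to 15 with a library left out. The 9 immediate early calls became 30 with DESeq2, 53 without the filter, 4 with doublets kept, 5 in single clusters and 5 to 49 with a library left out. The interaction, with 0 members called, called 1 without the filter (Hspd1, adjusted p = 0.0316, edgeR), 1 when clustered without heat shock genes (Hspb1, 0.0498) and 0 to 1 with a library left out (Hsp90aa1 without DMSO replicate 1, 0.00998). The 25% mitochondrial limit moved proximal tubule Hspd1 from 697 to 751 CPM and Hspe1 from 573 to 627 CPM. Matches of 3 units were in 2 members instead of 3 when only bases before the gene start were searched. Of all gene and class pairs, DESeq2 called 1.83% higher, 1.84% lower and 3.67% in either direction. The main edgeR fit called 0.939%, 0.828% and 1.77%. Shares with a library left out are given above. No share is given for the fits without the filter, with doublets kept, at other clusterings or in single clusters. Those counts therefore do not show a change particular to the members or lists. The cause of each change was not tested.

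With the replicate block, the counts were 13 higher and 1 lower for members, 37 higher and 9 lower for other chaperones and 23 for immediate early genes. No share of all genes called under the block is given here. These counts therefore do not show a change particular to the members or lists. Same-numbered libraries share only a number, and the correlation of their deviations ran from -0.155 (B cell) to 0.306 (proximal tubule). Under the block, monocyte Hsp90aa1 had an adjusted p of 0.0608 and Hspb1 of 0.0732 (edgeR). A crossed pairing gave 18 higher and 1 lower member calls, 12 higher and 1 lower for other chaperones and 26 for immediate early genes. No share of all genes is given for this fit either, so the same limit holds.

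None of the 6 called pairs reversed. With a library left out, these log2 fold changes took both signs: proximal tubule Hsp90aa1 (-0.090 to 0.34), macrophage Hspb1 (-0.24 to 1.52) and Hspe1 (-0.014 to 0.44), endothelial Hspa1a (-0.44 to 0.65), Hspa1b (-0.29 to 0.64) and Hsp90ab1 (-0.040 to 0.53), T cell Hspb1 (-0.59 to 2.34), monocyte Hspd1 (-0.15 to 0.14), dendritic cell Hspb1 (-0.67 to 2.74), B cell Hspb1 (-0.44 to 0.29) and neutrophil Hsp90aa1 (-0.25 to 0.73). The endothelial lows came without BPTES replicate 2. With doublets kept, B cell Hspb1 became 0.16, neutrophil Hspd1 0.063 and neutrophil Hspe1 -0.0044. When clustered without heat shock genes, proximal tubule Hspd1 became 0.0032.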
